A study of Mus musculus with 12 samples.

Results

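The 35 glycolysis and hypoxia response genes described here are the rows of a 55011-gene count table whose symbols belong to a fixed list of 16 glycolytic enzymes, 5 genes of glucose and lactate transport and flux control, the 2 subunits of the hypoxia-inducible factor and 12 of its known targets. All 35 were found, and 34 passed the filter on low counts; Vegfa did not and was not tested. They were read in 12 RNA libraries of CD4 T cells of the regulatory lineage (Treg), sorted by a live gate, TCRβ, CD4, GFP and CD25 from male C57BL/6 mice of 21 days, with 1000 cells re-sorted for each library. The 4 groups of 3 libraries were WT and ∆Foxp3 cells of spleen and WT and ∆Foxp3 cells of lung. Foxp3 is the transcription factor that defines Treg, and GFP marked cells in which its locus was active, so that cells with a non-functional Foxp3 could be sorted by the same gate. The WT mice carried the reporter allele Foxp3.ires.GFP. The sample labels give ∆Foxp3.EGFP.iCre X R26.YFP for the spleen ∆Foxp3 group and ∆Foxp3.ires.GFP for the lung ∆Foxp3 group, whereas the protocol text names ∆Foxp3.ires.GFP for both, and the sources used here do not settle which holds. The labels do not say whether each library is a different mouse, so a p-value reflects library-to-library spread, which may be technical. Lungs, unlike spleens, were digested with enzymes and enriched for CD4 cells, so tissue and preparation cannot be told apart, and between the ∆Foxp3 groups the allele cannot be told apart from either.

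Glycolysis splits glucose into pyruvate, and lactate dehydrogenase turns pyruvate into lactate, which leaves the cell through a proton-coupled carrier. The hypoxia-inducible factor (HIF) is a pair of an oxygen-labile alpha subunit and the stable partner Arnt; prolyl hydroxylases of the Egln family mark the alpha subunit for destruction when oxygen is present. In activated T cells HIF, Myc and mTOR signalling are known to raise the glycolytic enzymes, and Foxp3 has been described as restraining glycolysis in Treg.

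Library totals were 3958892 to 9025150 counts. Foxp3 itself was at 991 to 1096 CPM (counts scaled to a common library size with TMM factors, here and below) in spleen WT, 114 to 227 in spleen ∆Foxp3, 1328 to 1418 in lung WT and 189 to 469 in lung ∆Foxp3; the extent of the mutation was not given in the sources used here. Cd3e, Cd4 and both T cell receptor constant genes were at 481 CPM or more in every library. Of the 7 genes of that marker list, Foxp3 included, 1 rose (Cd4) and 5 fell in spleen ∆Foxp3 and 1 rose and 3 fell in lung ∆Foxp3; the list summed to 5006 to 5455 CPM in spleen WT, 3124 to 3537 in spleen ∆Foxp3, 5063 to 5208 in lung WT and 3164 to 3750.4 in lung ∆Foxp3. Among markers of other cells, 7 B and plasma cell genes summed to 1114 to 1274, 76.6 to 159.9, 1928 to 1969 and 134 to 261 CPM in the same order of groups, of which 1 of 3 tested, Ighm, fell in both tissues, while Ms4a1 and Pax5 were at 2.11 CPM or less in every library. The 7 lung epithelium genes summed to 34.4 to 45.1, 8.63 to 20.7, 53.9 to 223 and 17.8 to 27.2 CPM, with 1 of 5 tested higher and 1 lower in spleen ∆Foxp3 and 1 higher and 3 lower in lung ∆Foxp3. Of the fibroblast and smooth muscle genes, summing to 52.5 CPM or less, 1 of 2 tested, Fn1, rose in both tissues, and of 8 tested monocyte, macrophage and dendritic cell genes 1, Ctss, fell in both. The part of these cells in the member results was not tested. The 7 measured red cell genes summed to 1983 to 4916 CPM in lung WT, against 9.10 to 17.6 in spleen WT, 10.8 to 479 in spleen ∆Foxp3 and 1.39 to 403 in lung ∆Foxp3. In 3 libraries a repeat, marker or mitochondrial measure stood apart. The 2 mouse repeat transcripts Gm10800 and Gm10801 took 0.112% of counts in spleen WT replicate 1 against 0.743 to 2.94% elsewhere. Neutrophil genes were raised in lung WT replicate 1 (S100a9 at 14.6 CPM), where the surfactant gene Sftpc was at 64.0. The 7 lung epithelium genes together were highest in lung WT replicate 3, at 223 CPM, so their sum does not single out replicate 1. Mitochondrial genes took 2.44% in lung ∆Foxp3 replicate 3 against 1.40 to 1.63% elsewhere.

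The start regions of the members are shown for the genes on which the results turn, with the core of the HIF binding element, ACGTG or GCGTG read on either strand, in capitals. Sequences are from RefSeq (GRCm38.p6, the build that the authors' mm10 names), run 5′ to 3′ on the gene's strand, and span 250 bases before to 50 bases after an annotated start, so that each ends within the first exon. Pgk1 (chrX:106186850-106187149, plus strand) and Ldha (chr7:46845554-46845853, plus strand) stand for enzymes that rose in both tissues, and Tpi1 (chr6:124814109-124814408, minus strand) is the enzyme with the largest rise in spleen. Hilpda (chr6:29272376-29272675, plus strand, the second of its 2 annotated starts) is the member whose rise differed between tissues, and P4ha1 (chr10:59323046-59323345, plus strand) is the hypoxia target that fell most.
Pgk1: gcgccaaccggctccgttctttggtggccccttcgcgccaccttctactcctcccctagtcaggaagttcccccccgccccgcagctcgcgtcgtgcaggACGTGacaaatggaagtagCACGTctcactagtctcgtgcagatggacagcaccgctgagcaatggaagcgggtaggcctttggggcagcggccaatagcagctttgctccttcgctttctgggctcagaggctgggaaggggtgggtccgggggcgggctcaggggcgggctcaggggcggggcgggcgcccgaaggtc
Ldha: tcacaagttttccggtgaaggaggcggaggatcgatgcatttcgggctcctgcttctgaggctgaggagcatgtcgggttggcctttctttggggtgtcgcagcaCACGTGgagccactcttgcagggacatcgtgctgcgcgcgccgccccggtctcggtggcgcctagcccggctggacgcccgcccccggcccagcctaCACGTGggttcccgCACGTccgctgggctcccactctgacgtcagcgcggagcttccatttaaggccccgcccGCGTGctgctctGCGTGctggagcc
Tpi1: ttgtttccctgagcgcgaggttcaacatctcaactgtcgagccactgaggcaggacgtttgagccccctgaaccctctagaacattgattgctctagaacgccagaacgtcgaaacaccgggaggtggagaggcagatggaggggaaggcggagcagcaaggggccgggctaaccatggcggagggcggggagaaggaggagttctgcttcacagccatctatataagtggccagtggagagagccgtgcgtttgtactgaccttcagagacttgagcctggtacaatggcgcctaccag
Hilpda: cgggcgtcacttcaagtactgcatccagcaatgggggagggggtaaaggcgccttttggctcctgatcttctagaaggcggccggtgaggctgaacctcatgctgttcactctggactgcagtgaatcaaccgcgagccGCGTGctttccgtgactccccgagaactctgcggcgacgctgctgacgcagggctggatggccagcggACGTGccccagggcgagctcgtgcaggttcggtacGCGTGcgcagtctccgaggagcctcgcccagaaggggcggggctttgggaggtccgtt
P4ha1: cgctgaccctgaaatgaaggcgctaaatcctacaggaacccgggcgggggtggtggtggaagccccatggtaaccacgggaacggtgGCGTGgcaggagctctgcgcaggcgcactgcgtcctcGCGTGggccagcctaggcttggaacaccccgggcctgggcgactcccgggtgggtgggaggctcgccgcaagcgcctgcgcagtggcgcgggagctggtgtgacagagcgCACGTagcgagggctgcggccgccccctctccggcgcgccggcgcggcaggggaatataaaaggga
The Pgk1 window holds 2 ACGTG cores, the Ldha window 5 ACGTG and 2 GCGTG cores, and the Tpi1 window none. In the Ldha window 4 of the ACGTG matches are the 2 strands of CACGTG, a palindrome that is also the E-box bound by Myc-type factors. The Hilpda window holds 1 ACGTG and 2 GCGTG cores, and P4ha1, which fell, holds as many. Of the 32 members with an entry in the promoter table, 30 had either core in at least 1 annotated window (93.8%), against 46.7% of 27025 genes and 43.8% of 32851 windows. The members were listed partly because they are known HIF targets, so this share describes the list. By response, either core was found in 16 of 18 members that rose in 1 or both tissues, in 3 of 3 that fell and in all 10 that passed in neither, with Gpi1 and Tpi1 as the members without one. The search used letters only, and no binding was measured. Bnip3l, Ndrg1 and Slc2a3 have no entry.

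Glycolytic enzymes were higher in ∆Foxp3 than in WT cells of both tissues, whereas the hypoxia targets moved in both directions. A gene passed when the edgeR quasi-likelihood F test gave an adjusted p (Benjamini-Hochberg over 13295 tested genes) under 0.05. In spleen 18 members rose and 4 fell, against a background of 26.6% of all tested genes called (14.1% higher and 12.5% lower). In lung 13 rose and 2 fell, against 20.2% called (9.74% higher and 10.5% lower). Of the 16 enzymes, 13 rose and 2 fell in spleen, with a median log2 fold change of 1.23, and 11 rose and none fell in lung, with a median of 0.85; over all tested genes the medians were -0.02 and -0.01. All libraries of one genotype lay above those of the other for 18 members higher and 6 lower in spleen, against 38.2% of tested genes (18.6% higher and 19.5% lower). In lung this held for 20 members higher and 3 lower, against 45.3% (23.2% higher and 22.2% lower). Among the 5 transport and flux genes 1 rose in spleen and none passed in lung, and neither HIF subunit passed in either tissue. Of the 11 tested hypoxia targets, 4 rose and 2 fell in spleen and 2 rose and 2 fell in lung, with medians of 0.48 and 0.90.

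The 13 members higher in both tissues were Hk2, Gpi1, Pfkp, Aldoa, Tpi1, Gapdh, Pgk1, Pgam1, Eno1, Pkm, Ldha, Hilpda and Mif, against 6.84% of all tested genes. Bnip3l and P4ha1 were lower in both, against 7.18% of tested genes. Hk1, Pfkl, Slc16a3, Egln3 and Ankrd37 rose in spleen and did not pass in lung, and Aldoc and Ldhb fell in spleen and did not pass in lung. No member was called in opposite directions. Between tissues, the test of the difference itself passed for Hilpda alone. Without the 3 libraries that stood apart, 19 members rose and 3 fell in spleen and 11 rose and 2 fell in lung. Of the calls above, Bnip3l in spleen (adjusted p = 0.0892) and Hk2, Gpi1 and Pgam1 in lung (adjusted p = 0.0923, 0.169 and 0.26) then no longer passed. With only the 2 groups compared in each fit, the spleen calls of Pfkl, Aldoc, Bnip3l and Ankrd37 were lost (adjusted p = 0.0632 to 0.134), and Hk1, Pfkl, Pdk1, Egln1, Egln3, Ankrd37 and Ddit4 passed in lung (adjusted p = 0.00297 to 0.0444).

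**Figure D1:**
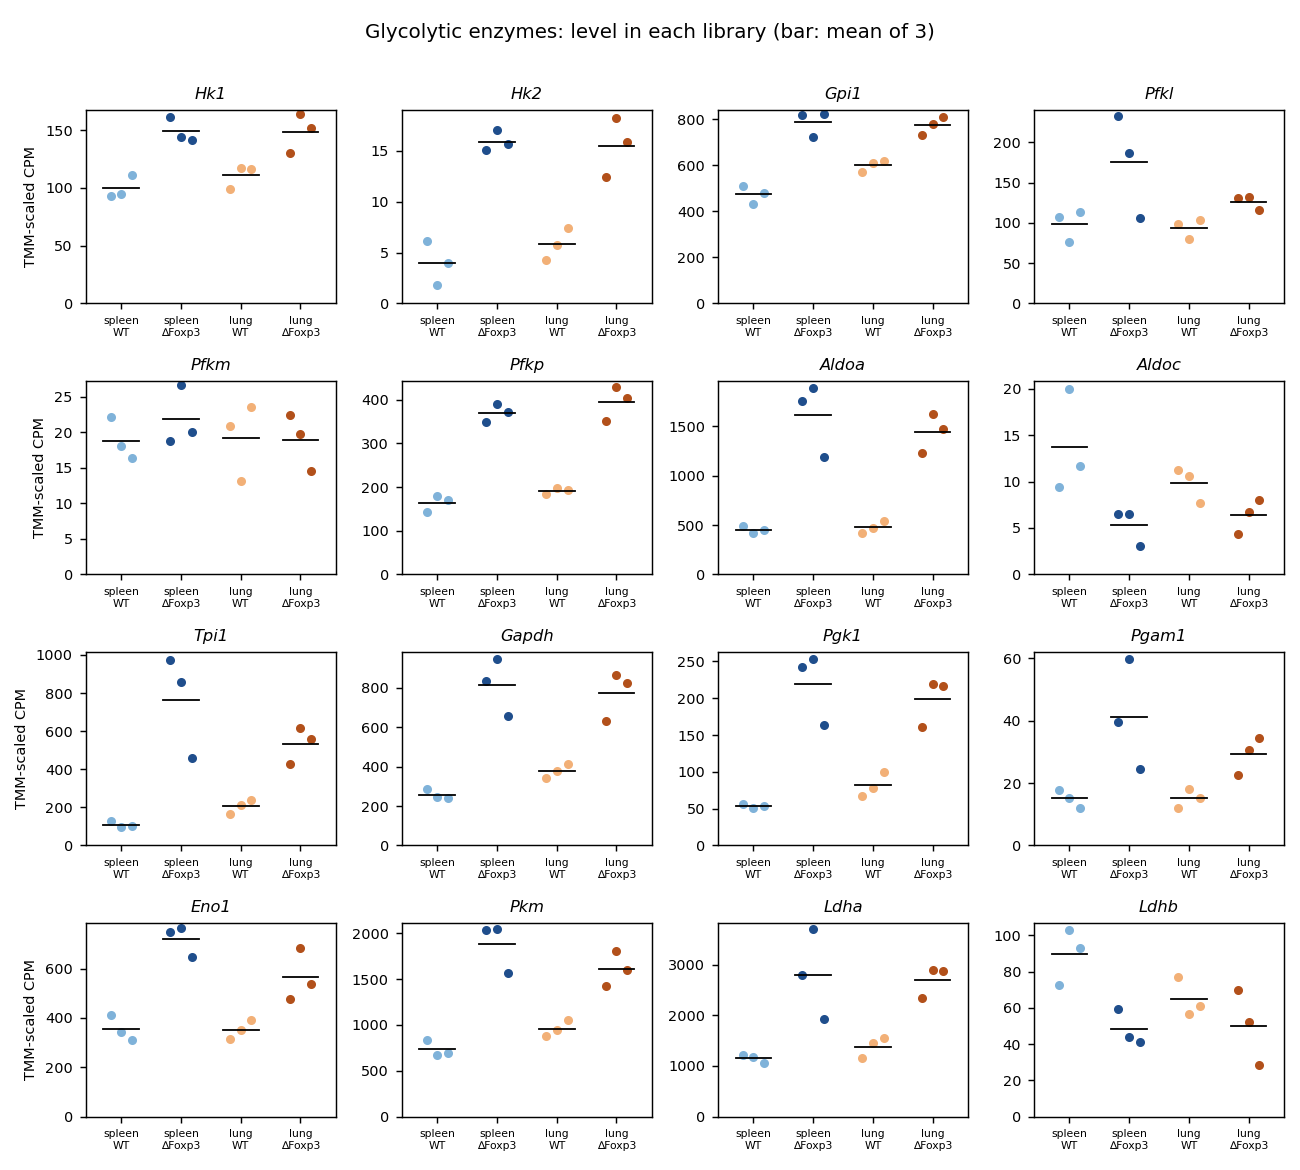
Level of each of the 16 glycolytic enzymes in the 12 libraries, as TMM-scaled CPM on linear axes that start at 0, with 1 point per library and a bar at the mean of each group of 3. Points of the ∆Foxp3 groups lie above the WT points of the same tissue for most enzymes, while Aldoc and Ldhb lie the other way in spleen and Pfkm shows no separation.

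Hexokinase, which traps glucose as glucose 6-phosphate, was represented by the abundant Hk1 and the inducible Hk2. Hk2 was at 6.13, 1.79 and 4.01 CPM in the spleen WT libraries and 15.1, 17.0 and 15.6 in spleen ∆Foxp3. Lung Hk2 was at 4.31, 5.70 and 7.38 in WT and 12.5, 18.2 and 15.9 in ∆Foxp3. The genotypes did not overlap in either tissue, and the log2 rise was 1.97 ± 0.41, adjusted p = 0.00266 in spleen and, in lung, 1.41 ± 0.41, adjusted p = 0.025. Leaving out lung WT replicate 1 or 2 or lung ∆Foxp3 replicate 2 or 3 ended the lung call (adjusted p = 0.0698 to 0.0923). Hk1 was at 93.0, 95.2 and 111 in spleen WT and 161, 145 and 141 in spleen ∆Foxp3, a rise of 0.58 ± 0.15, adjusted p = 0.00874. Its lung levels, 99.5, 117 and 117 in WT and 130.1, 164 and 152 in ∆Foxp3, also did not overlap, but the difference of 0.42 ± 0.15, adjusted p = 0.0534 did not pass. It passed when lung ∆Foxp3 replicate 1, spleen ∆Foxp3 replicate 2 or 3 or spleen WT replicate 1 was left out (adjusted p = 0.0295 to 0.0482). With every library kept, it passed with DESeq2 and limma (adjusted p = 0.0322 and 0.0125).

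Gpi1, the isomerase that makes fructose 6-phosphate, was at 511, 432 and 478 CPM in spleen WT and 817, 723 and 823 in spleen ∆Foxp3. Lung Gpi1 was at 572, 609.5 and 619 in WT and 733, 781 and 809 in ∆Foxp3. The groups were apart in both tissues with a rise of 0.73 ± 0.12, adjusted p = 0.00042 in spleen and, in lung, a smaller one of 0.37 ± 0.12, adjusted p = 0.0412. The lung call was lost when spleen WT replicate 3, any lung WT library, or lung ∆Foxp3 replicate 2 or 3 was left out (adjusted p = 0.0515 to 0.116), and also with upper-quartile factors, another low-count filter or none, or replicate number as a block (adjusted p = 0.0502 to 0.203).

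Phosphofructokinase commits sugar to glycolysis, and of its 3 genes the platelet-type Pfkp changed most. Pfkp was at 143, 179.7 and 169 CPM in spleen WT and 349, 390.0 and 372 in spleen ∆Foxp3, and at 184, 197 and 194 in lung WT and 352, 429 and 405 in lung ∆Foxp3. Every ∆Foxp3 library was above every WT library, with rises of 1.18 ± 0.13, adjusted p = 2.38e-05 in spleen and, in lung, 1.04 ± 0.13, adjusted p = 0.000127. The neighbouring gene Pitrm1, with which Pfkp shares 17.3% of its transcript's 38-base words, had means of 49.5 and 77.8 CPM in WT and ∆Foxp3 spleen and of 49.9 and 74.1 in WT and ∆Foxp3 lung, so reads could be split between the genes; its part in the Pfkp result was not tested. Pfkl, the liver type, was at 107, 76.5 and 114 in spleen WT and 233, 187 and 106 in spleen ∆Foxp3, where replicate 3 lay within the WT range. Its rise of 0.82 ± 0.24, adjusted p = 0.0188 was lost without spleen ∆Foxp3 replicate 1 or 2 or spleen WT replicate 2 (adjusted p = 0.0558 to 0.0944). Lung Pfkl was at 99.1, 79.8 and 103 in WT and 131, 132 and 116 in ∆Foxp3 and did not pass (0.42 ± 0.24, adjusted p = 0.231). Pfkm, the muscle type, was at 13.2 to 26.6 CPM over all libraries and passed in neither tissue.

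Aldolase splits the phosphorylated sugar, and most of its message was Aldoa. Aldoa was at 493, 418 and 453 CPM in spleen WT and 1753, 1887 and 1190.0 in spleen ∆Foxp3. Lung levels were 416, 471 and 542 in WT and 1227, 1621 and 1468 in ∆Foxp3. Every ∆Foxp3 library stood above every WT library, and the rises were 1.82 ± 0.18, adjusted p = 8.15e-06 in spleen and, in lung, 1.59 ± 0.18, adjusted p = 3.91e-05. The brain-type Aldoc went the other way in spleen, from 9.47, 20.0 and 11.7 in WT to 6.56, 6.47 and 3.01 in ∆Foxp3 (-1.37 ± 0.43, adjusted p = 0.0281). That fall was lost without spleen ∆Foxp3 replicate 3 or spleen WT replicate 2 (adjusted p = 0.0958 and 0.136). In lung Aldoc was at 11.2, 10.6 and 7.74 in WT and 4.38, 6.74 and 8.04 in ∆Foxp3, which overlap, and did not pass.

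Tpi1, the triose phosphate isomerase, rose most of all enzymes in spleen. It was at 130.3, 95.2 and 101 CPM in spleen WT and 973, 858 and 459.9 in spleen ∆Foxp3, a 7.01-fold rise (2.81 ± 0.26, adjusted p = 6.54e-06). Lung Tpi1 was at 167, 211 and 238 in WT and 427, 617 and 559.6 in ∆Foxp3, a 2.60-fold rise (1.38 ± 0.25, adjusted p = 0.0015). No library of one genotype reached the other's range in either tissue. Each lung WT library also lay above each spleen WT library, with a log2 difference of 0.92 ± 0.25, adjusted p = 0.0502 that missed the threshold narrowly and passed under 11 of the alternatives, RLE factors among them (adjusted p = 0.0467). The smaller genotype difference in lung gave an interaction of -1.43 ± 0.34, adjusted p = 0.077, which did not pass; it passed without spleen ∆Foxp3 replicate 3, the lowest of its group (adjusted p = 0.00301), and with DESeq2, limma and no low-count filter (adjusted p = 0.00427, 0.0193 and 6.73e-07).

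Gapdh oxidises the triose and Pgk1 makes the first ATP of the pathway. Gapdh was at 285, 245 and 241 CPM in spleen WT and 832, 947 and 657 in spleen ∆Foxp3, and at 344, 379 and 411 in lung WT and 629.9, 866 and 826 in lung ∆Foxp3. The genotypes were apart in both tissues, with rises of 1.66 ± 0.17, adjusted p = 9.56e-06 in spleen and, in lung, 1.03 ± 0.16, adjusted p = 0.000605. Pgk1, whose start region with 2 ACGTG cores is shown above, was at 56.9, 51.5 and 53.2 in spleen WT and 242, 253 and 164 in spleen ∆Foxp3. Its lung levels were 66.8, 78.3 and 100.2 in WT and 161, 219 and 217 in ∆Foxp3. Again every ∆Foxp3 library was above every WT library, and the rises were 2.03 ± 0.20, adjusted p = 9.56e-06 in spleen and, in lung, 1.28 ± 0.20, adjusted p = 0.000516. Both genes have many processed copies in the genome: 83.5% of the Gapdh and 68.2% of the Pgk1 transcript's 38-base words also occur in another annotated transcript. The copies sharing most with them, Gm7336 and Pgk1-rs7, were listed at 0.0514 to 0.463 and 0.0661 to 0.103 CPM on average per group, and reads lost as ambiguous cannot be seen in the table.

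Pgam1, the phosphoglycerate mutase, was at 17.9, 15.4 and 11.9 CPM in spleen WT and 39.6, 59.7 and 24.5 in spleen ∆Foxp3. Lung Pgam1 was at 12.1, 18.1 and 15.1 in WT and 22.6, 30.7 and 34.4 in ∆Foxp3. The groups did not overlap, and the rises were 1.44 ± 0.32, adjusted p = 0.00376 in spleen and, in lung, 0.96 ± 0.32, adjusted p = 0.048. The lung call was lost on leaving out any lung WT library, lung ∆Foxp3 replicate 2 or 3, spleen WT replicate 2 or spleen ∆Foxp3 replicate 1 (adjusted p = 0.0568 to 0.148), and with upper-quartile factors (adjusted p = 0.0519). Eno1, the enolase, was at 410.4, 344 and 310.5 in spleen WT and 748, 763 and 647 in spleen ∆Foxp3, and at 313, 351 and 391 in lung WT and 475, 681 and 536 in lung ∆Foxp3. All ∆Foxp3 libraries lay above WT, by 1.02 ± 0.16, adjusted p = 0.000335 in spleen and, in lung, 0.68 ± 0.16, adjusted p = 0.00793. Eno1 shares 73.7% of its 38-base words with the intronless copy Eno1b, which the table lists at 0.82 to 1.50 CPM on average per group.

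Pkm, the pyruvate kinase that closes the pathway, was at 838, 667 and 693 CPM in spleen WT and 2038, 2045 and 1561 in spleen ∆Foxp3. Lung levels were 875, 946 and 1051 in WT and 1421, 1806 and 1597 in ∆Foxp3. The genotypes were apart in both tissues, with rises of 1.36 ± 0.15, adjusted p = 1.8e-05 in spleen and, in lung, 0.75 ± 0.15, adjusted p = 0.00283; a table of counts per gene does not tell its splice forms apart. Ldha, the lactate-forming dehydrogenase subunit and the enzyme with the highest level per kilobase of exon in spleen WT (349 ± 26.2 CPM per kilobase, SD, n = 3), was at 1224, 1182 and 1058 CPM in spleen WT and 2795, 3697 and 1923 in spleen ∆Foxp3. Lung Ldha was at 1152, 1445 and 1545 in WT and 2349.6, 2894 and 2873 in ∆Foxp3. No overlap was seen, and the rises were 1.28 ± 0.20, adjusted p = 0.000272 in spleen and, in lung, 0.97 ± 0.20, adjusted p = 0.00313. Ldhb, the subunit that favours pyruvate, was lower in spleen ∆Foxp3 at 59.5, 43.9 and 40.9 against 72.4, 103 and 92.9 in WT (-0.90 ± 0.27, adjusted p = 0.024). The call was lost without spleen ∆Foxp3 replicate 2 or 3 or spleen WT replicate 2 or 3 (adjusted p = 0.0591 to 0.0852). Lung Ldhb was at 76.9, 56.5 and 61.2 in WT and 69.7, 52.1 and 28.4 in ∆Foxp3, which overlap, and did not pass.

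**Figure D2:**
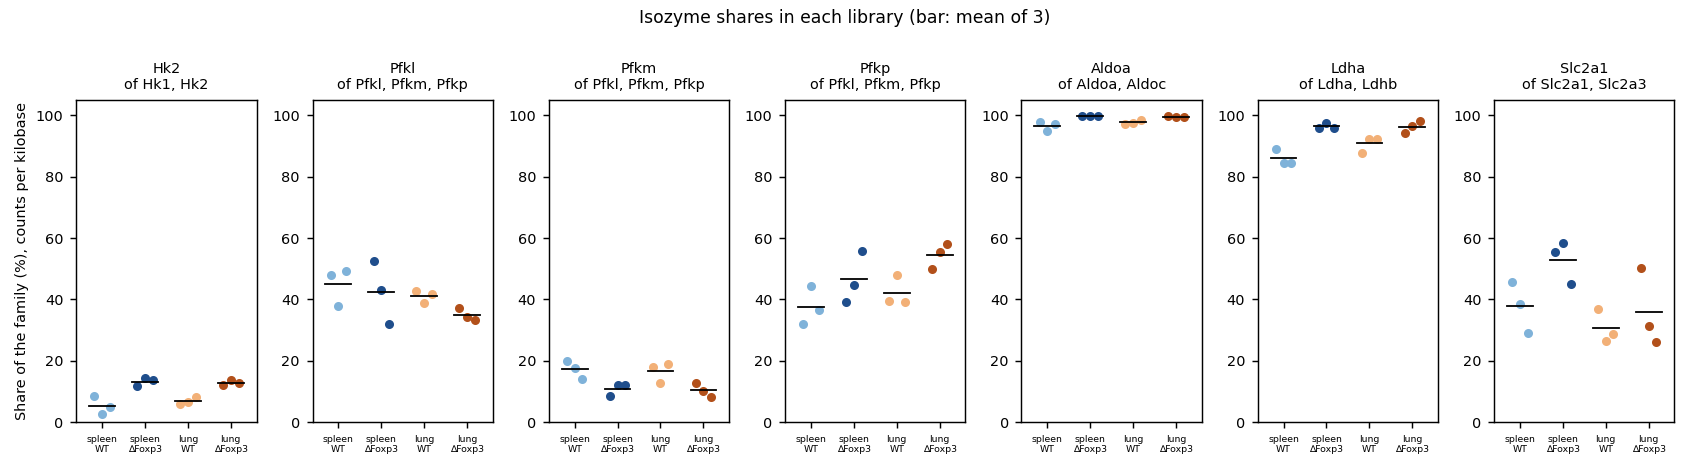
Share of each isozyme in the summed level of its family, from counts per kilobase of exon, as a percentage in each of the 12 libraries with a bar at the mean of each group of 3. Hk2, Pfkp and Ldha take larger mean shares in ∆Foxp3 than in WT cells and Pfkm a smaller one, while the Aldoa axis is near its ceiling. The Pfkp shares of the genotypes overlap in spleen.

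Within enzyme families the make-up also differed between genotypes. These shares rest on the same counts as the fold changes above and are no separate measurement. Their size also depends on the length used, which joins all annotated exons of a gene. Levels per kilobase of exon were added within a family, and the genotype was permuted within tissue by an exact, two-sided test over 400 regroupings, whose smallest possible p is 0.005, with adjustment over the 7 isozymes tested. Hk2 made up 5.38 ± 3.02% of hexokinase in spleen WT and 13.3 ± 1.35% in spleen ∆Foxp3, and 6.87 ± 1.28% in lung WT and 12.9 ± 0.828% in lung ∆Foxp3 (mean ± SD, n = 3 each), a difference of 6.97 percentage points (exact permutation test, adjusted p = 0.00875). Ldha made up 85.9 ± 2.60% and 96.3 ± 1.07% of lactate dehydrogenase in spleen WT and ∆Foxp3, and 90.8 ± 2.701% and 96.1 ± 1.93% in lung (7.88 points, exact permutation test, adjusted p = 0.00875). Pfkp gained 10.6 points of phosphofructokinase and Pfkm fell by 6.28 points (exact permutation test, adjusted p = 0.021 and 0.00875), while the share of Pfkl did not pass. The Pfkp shares overlapped in spleen, at 32.0, 44.3 and 36.5% in WT and 39.1, 44.7 and 55.9% in ∆Foxp3. Aldoa gained 2.44 points from a share that was already 94.8% or more (exact permutation test, adjusted p = 0.00875). For the glucose carriers, Slc2a1 against Slc2a3, the difference of 10.1 points did not pass (exact permutation test, adjusted p = 0.0992), and lung ∆Foxp3 replicate 1 stood apart from its group at 50.2% against 31.3 and 26.2%. Without lung ∆Foxp3 replicate 3 it was 12.5 points and passed (exact permutation test, adjusted p = 0.0467).

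**Figure D3:**
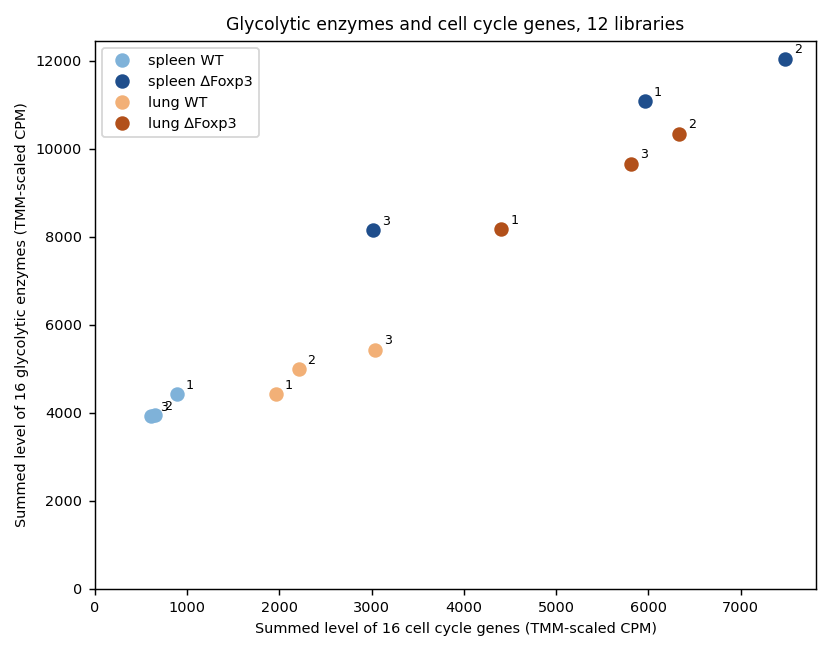
Summed TMM-scaled CPM of the 16 glycolytic enzymes against that of 16 cell cycle genes in each of the 12 libraries, on linear axes from 0, with the replicate number beside each point. The 6 ∆Foxp3 libraries, at 8147 to 12049 CPM of enzymes, lie above the 6 WT libraries at 3917 to 5427, and lung WT libraries have more cell cycle message (1961 to 3033 CPM) than spleen WT libraries (605 to 887).

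Summed over the 16 enzymes, the level was 4421, 3945 and 3917 CPM in spleen WT and 11081, 12049 and 8147 in spleen ∆Foxp3, a ratio of 2.55 between means. In lung it was 4414, 4990.0 and 5427 in WT and 8168, 10338 and 9661 in ∆Foxp3, a ratio of 1.90. As a share of all counts, without scaling factors, the enzymes took 0.411 to 0.440% in spleen WT, 0.840 to 1.15% in spleen ∆Foxp3, 0.433 to 0.531% in lung WT and 0.816 to 0.989% in lung ∆Foxp3. These are bulk libraries, in which more cells with a high level and more RNA per cell cannot be told apart. Replicate 3 was the lowest spleen ∆Foxp3 library for 12 of the 16 enzymes, and replicate 1 the lowest lung ∆Foxp3 library for 13. A list of 16 cell cycle genes, among them Mki67 and Top2a, moved with the enzymes. It summed to 887, 652 and 605 CPM in spleen WT, 5964, 7479 and 3019 in spleen ∆Foxp3, 1961, 2208 and 3033 in lung WT and 4407, 6335 and 5813 in lung ∆Foxp3. All 16 rose in spleen and 10 of 16 in lung, and the same replicates were the lowest of the ∆Foxp3 groups. Between the WT groups 14 of the 16 cell cycle genes were called higher in lung. Of the 16 enzymes none was called there, against 4.13% of tested genes, and 6 had all lung libraries above all spleen libraries, against 13.2%. Under the alternatives Tpi1 passed in 11, Gapdh in 7, Gpi1 in 2 and Pkm in 1. The part of the cell cycle in the enzyme result was not tested.

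**Figure D4:**
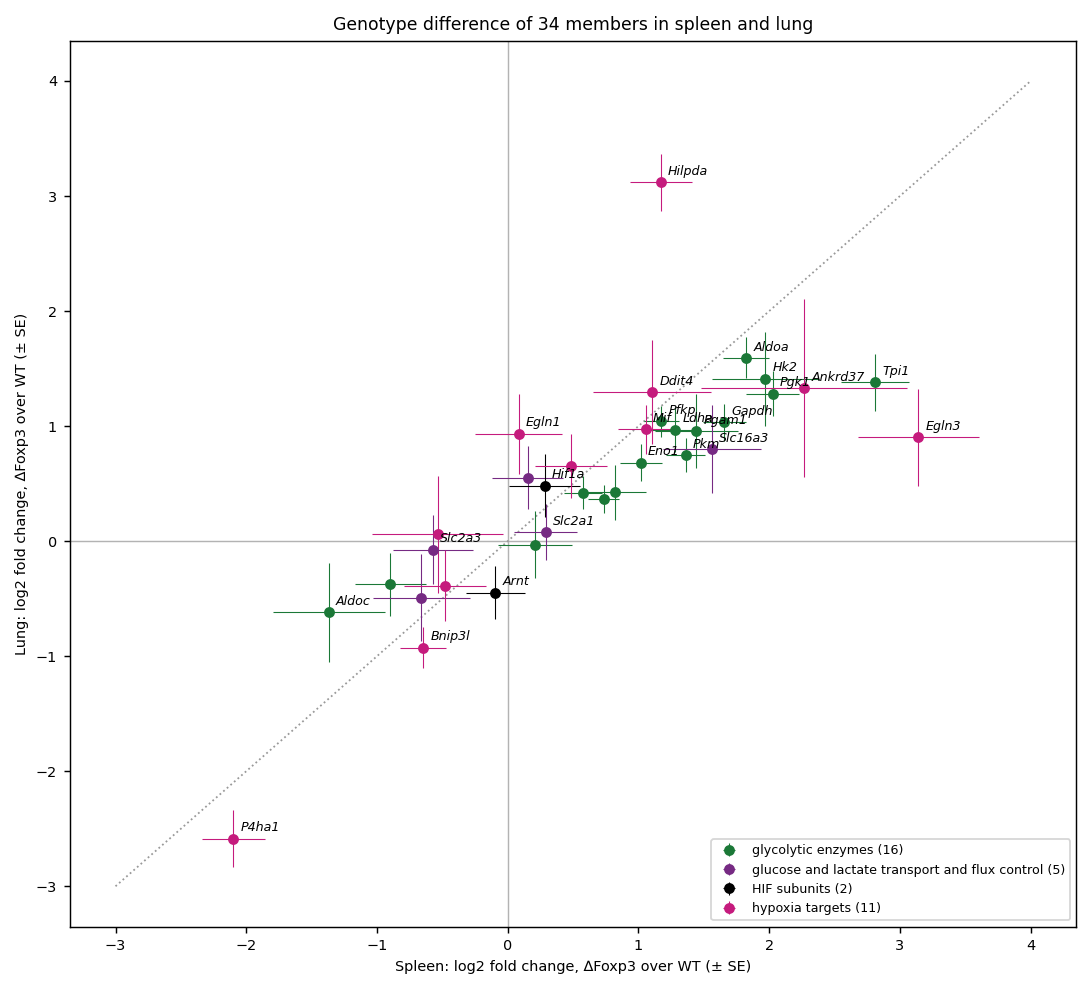
Log2 fold change of ∆Foxp3 over WT in lung against that in spleen for the 34 tested members, with SE bars, coloured by role; the dotted line marks equal change. Most enzymes lie at the upper right, below or near the line, Hilpda lies far above it at 1.17 in spleen and 3.12 in lung, Egln3 far below it, and P4ha1 and Bnip3l lie at the lower left.

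Of the transport and flux genes, Slc16a3 in spleen was the single call. Slc16a3, the lactate exporter of glycolytic cells, was at 27.7, 18.2 and 20.7 CPM in spleen WT and 74.1, 78.6 and 45.2 in spleen ∆Foxp3, with no overlap and a rise of 1.56 ± 0.38, adjusted p = 0.0071. Lung Slc16a3 was at 29.9, 30.1 and 9.85 in WT and 39.5, 54.1 and 27.0 in ∆Foxp3, which overlap, and the difference of 0.80 ± 0.38, adjusted p = 0.153 did not pass. This lung difference passed under 1 of the 22 alternatives, with no low-count filter (adjusted p = 0.0312). The glucose carrier Slc2a1 stayed at 22.1 to 41.3 CPM in all 12 libraries, with log2 differences of 0.29 ± 0.24 in spleen and 0.08 ± 0.24 in lung. Slc2a3, the high-affinity glucose carrier, was at 53.1 to 163 CPM and lay lower in all spleen ∆Foxp3 libraries (68.9, 54.9 and 76.9) than in WT (91.7, 96.5 and 111), but did not pass (-0.57 ± 0.30, adjusted p = 0.187). Without lung ∆Foxp3 replicate 1, whose Slc2a3 level of 53.1 stood apart from 163 and 155 in its group, that spleen fall passed (adjusted p = 0.0292), as it did with no low-count filter (adjusted p = 0.039). Pfkfb3, which makes the activator of phosphofructokinase, was at 23.7 to 56.5 CPM, and Pdk1, which shuts pyruvate out of the mitochondrial dehydrogenase, at 19.9 to 115 CPM. Neither passed in either tissue in the main edgeR fit. Spleen Pdk1 passed under 1 of the alternatives. Lung Pfkfb3, at 0.55 ± 0.28, adjusted p = 0.174 in the main fit, passed without spleen WT replicate 1 (adjusted p = 0.049). With every library kept, it passed with limma (adjusted p = 0.0382).

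**Figure D5:**
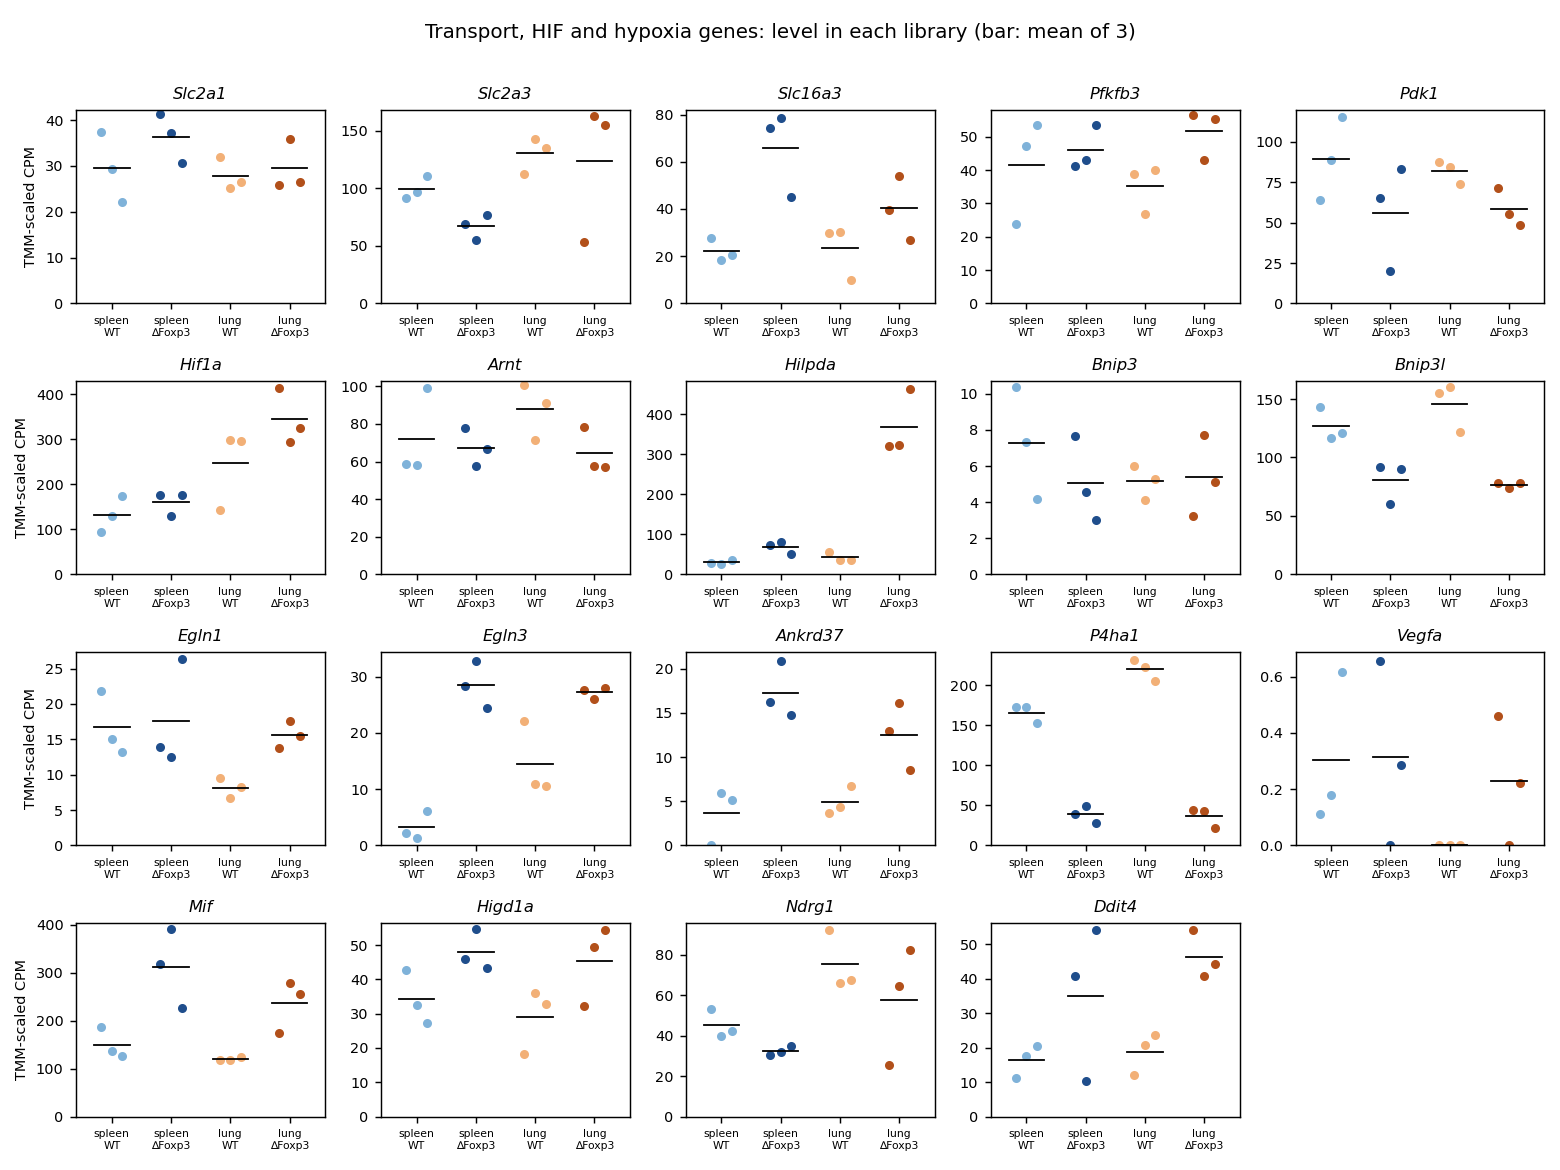
Level of the 5 transport and flux genes, the 2 HIF subunits and the 12 hypoxia targets in the 12 libraries, as TMM-scaled CPM on linear axes from 0, with 1 point per library and a bar at the mean of each group of 3. Hilpda is at 321 to 462 CPM in lung ∆Foxp3 and at 80.1 or less elsewhere, P4ha1 is lower in both ∆Foxp3 groups, and both HIF subunits overlap between genotypes in each tissue.

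The HIF subunits themselves did not pass between genotypes. Hif1a was at 94.3, 129.7 and 173 CPM in spleen WT and 177, 129 and 177 in spleen ∆Foxp3, which overlap (0.28 ± 0.27, adjusted p = 0.488). Lung Hif1a was at 143, 299 and 297 in WT and 414, 293 and 325 in ∆Foxp3 (0.48 ± 0.27, adjusted p = 0.233). Levels in lung ∆Foxp3 were above every spleen ∆Foxp3 library, a log2 difference of 1.10 ± 0.27, adjusted p = 0.111 that did not pass. It passed under 5 of the 22 alternatives, among them without lung WT replicate 1 and with DESeq2 (adjusted p = 0.023 and 0.00704). Between the WT groups the same difference was 0.90 ± 0.27, adjusted p = 0.0832. It passed under 4 of the 22 alternatives, among them without lung WT replicate 1 (adjusted p = 0.0113). Arnt was at 57.2 to 101 CPM throughout, with no call in any comparison. HIF is governed chiefly at the protein level, which was not measured.

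The prolyl hydroxylases that act on HIF are themselves HIF targets. Egln3 was at 2.23, 1.25 and 6.17 CPM in spleen WT and 28.4, 32.8 and 24.4 in spleen ∆Foxp3, a rise of 3.14 ± 0.46, adjusted p = 0.000199 and the largest of any member in spleen. Lung Egln3 was at 22.2, 10.9 and 10.5 in WT and 27.7, 26.0 and 27.9 in ∆Foxp3, and the difference of 0.90 ± 0.42, adjusted p = 0.144 did not pass although the groups were apart. With limma, lung Egln3 passed (adjusted p = 0.00742). Its ∆Foxp3 levels were alike in range in both tissues, whereas lung WT lay above spleen WT by 2.17 ± 0.46, adjusted p = 0.0146, the only member called between the WT groups, where 4.13% of tested genes were called (3.1% higher in lung). That call was lost under 4 of the 22 alternatives, with an adjusted p of up to 0.152. Among these were the fits without lung WT replicate 1 or spleen WT replicate 2 (adjusted p = 0.053 and 0.0519). The interaction was -2.24 ± 0.61, adjusted p = 0.134 and did not pass, except without spleen WT replicate 3 (adjusted p = 0.0157), with DESeq2 (adjusted p = 0.0151) and with no low-count filter (adjusted p = 0.00176), among the alternatives tried. Egln1, the main oxygen sensor of the family, was at 6.74 to 26.4 CPM and passed in neither tissue (0.08 ± 0.33 in spleen, 0.93 ± 0.35 in lung). The lung difference passed without spleen ∆Foxp3 replicate 3 or spleen WT replicate 1 (adjusted p = 0.0409 and 0.0429), and with limma and every library kept (adjusted p = 0.0119).

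Hilpda, a lipid droplet protein that inhibits fat breakdown and a classical HIF target, was the member whose genotype difference itself differed between tissues. It was at 28.8, 26.3 and 35.5 CPM in spleen WT and 74.3, 80.1 and 50.2 in spleen ∆Foxp3, a 2.25-fold rise (1.17 ± 0.24, adjusted p = 0.00214). Lung Hilpda was at 56.6, 35.5 and 34.8 in WT and 321, 322 and 462 in ∆Foxp3, an 8.70-fold rise (3.12 ± 0.25, adjusted p = 2.48e-06). No group overlapped the other genotype, and all 3 lung ∆Foxp3 libraries were at 321 CPM or more while no other library exceeded 80.1. The difference between the genotype effects was 1.95 ± 0.33, adjusted p = 0.0121, with 0.925% of all tested genes called in that test (0.143% in this direction). Between ∆Foxp3 groups lung exceeded spleen by 2.44 ± 0.24, adjusted p = 0.000139, where 0.722% of tested genes were called, and Hilpda was the only member called in either. The 4 Hilpda calls held under every alternative tried, with the interaction at an adjusted p of up to 0.0474. Lung and spleen differed also in preparation and, per the sample labels, in the ∆Foxp3 allele, so these cannot be told apart. Hilpda spans chr6:29272488-29275446, none of its 38-base words is shared with another annotated transcript, and 3 cores lie in the window shown above.

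P4ha1, a subunit of the collagen prolyl hydroxylase that is usually induced by HIF, moved against the enzymes. It was at 173, 172 and 153 CPM in spleen WT and 39.1, 49.1 and 28.7 in spleen ∆Foxp3, which was 4.28-fold lower (-2.10 ± 0.24, adjusted p = 2.78e-05). Lung P4ha1 was at 232, 223 and 206 in WT and 44.5, 43.6 and 21.7 in ∆Foxp3, 6.00-fold lower (-2.59 ± 0.25, adjusted p = 1.3e-05). The genotypes were far apart in both tissues. Bnip3l, a mitophagy receptor that also serves red cell maturation, was at 143, 116 and 121 in spleen WT and 92.0, 60.4 and 90.1 in spleen ∆Foxp3 (-0.65 ± 0.18, adjusted p = 0.0145). Lung Bnip3l was at 155, 161 and 122 in WT and 78.4, 73.7 and 78.2 in ∆Foxp3 (-0.93 ± 0.18, adjusted p = 0.00249). Both tissues showed lower levels with no overlap; the spleen call was lost without spleen WT replicate 1 or spleen ∆Foxp3 replicate 2 (adjusted p = 0.0608 and 0.0543). In lung the red cell genes moved the same way (3 of 7 tested fell, sums as given above), while in spleen 2 of 7 rose. Their sum was high in spleen ∆Foxp3 replicate 1 alone, at 479 CPM against 10.8 and 15.2 in replicates 2 and 3. The part of red cells in the Bnip3l result was not tested. Its relative Bnip3, at 3.01 to 10.4 CPM, passed in neither tissue.

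Mif, a cytokine and HIF target that is also abundant in resting T cells, was at 186, 136 and 127 CPM in spleen WT and 319, 390.5 and 226 in spleen ∆Foxp3. Lung Mif was at 119, 119 and 124 in WT and 175, 278 and 255 in ∆Foxp3. No overlap was seen, and the rises were 1.06 ± 0.21, adjusted p = 0.00227 in spleen and, in lung, 0.97 ± 0.22, adjusted p = 0.00603. Mif shares 84.0% of its 38-base words with other annotated transcripts, 72.4% with the overlapping gene C230062I16Rik alone, whose group means were 4.62 to 6.16 CPM; without the strand setting their reads cannot be told apart. Ankrd37, an ankyrin repeat gene, was at 0, 5.90 and 5.09 in spleen WT and 16.2, 20.9 and 14.8 in spleen ∆Foxp3 (2.27 ± 0.79, adjusted p = 0.0466). Leaving out any 1 library other than spleen WT replicate 1, where it was at 0, ended this call (adjusted p = 0.0508 to 0.12). Lung Ankrd37 was at 3.66, 4.41 and 6.68 in WT and 12.9, 16.1 and 8.49 in ∆Foxp3 and did not pass (1.33 ± 0.78, adjusted p = 0.249), except without spleen WT replicate 1 (adjusted p = 0.0128), without the 3 libraries that stood apart (adjusted p = 0.0466) and, as given above, with only the groups compared.

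The remaining targets passed in neither tissue. Ddit4, an inhibitor of mTOR signalling, came nearest, at 11.2, 17.7 and 20.5 CPM in spleen WT, 40.9, 10.3 and 54.0 in spleen ∆Foxp3, 12.1, 20.7 and 23.6 in lung WT and 54.0, 40.6 and 44.2 in lung ∆Foxp3. The lung groups were apart and the spleen groups were not, because spleen ∆Foxp3 replicate 2 was the lowest of its tissue. Its differences were 1.10 ± 0.45, adjusted p = 0.0844 in spleen and, in lung, 1.30 ± 0.45, adjusted p = 0.0566, and without that replicate both passed (adjusted p = 0.00326 and 0.00575). The lung difference passed also without spleen ∆Foxp3 replicate 3 or spleen WT replicate 1 (adjusted p = 0.0374 and 0.0483). With every library kept, it passed with DESeq2, limma and no low-count filter (adjusted p = 0.0191, 0.015 and 0.000245). The spleen difference then passed with DESeq2 and no low-count filter (adjusted p = 0.0407 and 0.00207). Higd1a, a mitochondrial survival gene, was at 18.1 to 54.7 CPM, with 0.48 ± 0.27 in spleen and 0.65 ± 0.28 in lung. The lung difference reached an adjusted p of 0.05 without lung ∆Foxp3 replicate 1 and passed with limma (adjusted p = 0.0485). Ndrg1, a stress-response gene, was at 25.6 to 92.4 CPM, and without lung ∆Foxp3 replicate 1, the lowest library, it was higher in lung than in spleen ∆Foxp3 (log2 1.21, adjusted p = 0.0287). Vegfa, the angiogenic factor, stayed at 0.66 CPM or less in every library.

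Related genes outside the list were mixed in direction. Of 28 tested genes of a further glycolysis and pyruvate list, 3 rose and 3 fell in spleen and 4 rose and 3 fell in lung, shares near that of all tested genes. Eno3, the muscle enolase, fell from 89.8, 80.9 and 71.4 to 13.8, 20.1 and 5.31 CPM in spleen and from 53.0, 58.0 and 46.6 to 17.8, 23.2 and 6.92 in lung (-2.66 ± 0.43, adjusted p = 0.000466 and -1.71 ± 0.42, adjusted p = 0.0106), opposite to Eno1. Pdk4, a kinase that blocks pyruvate dehydrogenase, had 0 counts in all 6 WT libraries. It was at 5.90, 10.3 and 10.2 CPM in spleen ∆Foxp3, at least 63.0-fold higher than 3 counts over the WT group, and at 0.461, 0.793 and 9.16 in lung ∆Foxp3, at least 16.05-fold higher; the lung call rests on replicate 3 (adjusted p = 0.0641 without it). Pdk3, another such kinase, rose by 0.63 ± 0.17, adjusted p = 0.0154 in spleen and, in lung, 1.01 ± 0.18, adjusted p = 0.00132, the former lost without spleen ∆Foxp3 replicate 1 or 2 (adjusted p = 0.0504 and 0.0622). Slc2a8, an intracellular sugar carrier, rose by 1.22 ± 0.35, adjusted p = 0.0192 in spleen and, in lung, 1.21 ± 0.37, adjusted p = 0.0306. Those calls were lost without spleen WT replicate 2 or 3 or spleen ∆Foxp3 replicate 3 in spleen, and without any lung WT library or lung ∆Foxp3 replicate 3 in lung (adjusted p = 0.0715 to 0.113).

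Gpd1l, a glycerol phosphate dehydrogenase homologue, differed between tissues. It was at 55.1, 53.6 and 56.2 CPM in spleen WT, 62.7, 64.7 and 69.4 in spleen ∆Foxp3, 112, 143 and 137 in lung WT and 62.1, 61.6 and 50.3 in lung ∆Foxp3, so only lung WT stood above the rest. It fell by 1.17 ± 0.16 in lung and did not pass in spleen (0.26 ± 0.15, adjusted p = 0.244), with an interaction of -1.43 ± 0.22, adjusted p = 0.006. Bpgm, which makes the bisphosphoglycerate of red cells, was at 96.3, 98.0 and 59.1 in lung WT and 30.0, 36.1 and 33.95 in lung ∆Foxp3 (-1.34 ± 0.27, adjusted p = 0.003). In spleen it was at 73.1, 36.6 and 40.3 and 30.2, 27.3 and 25.5 (-0.86 ± 0.27, adjusted p = 0.0265), a call lost without spleen WT replicate 1 or any spleen ∆Foxp3 library (adjusted p = 0.0584 to 0.175). Haemoglobin genes were likewise highest in lung WT, at 0.181 to 0.452% of counts against 0.0359% or less in the other groups, and their part in these lung differences was not tested. In the pentose phosphate branch Pgd rose in spleen (0.60 ± 0.16, adjusted p = 0.0111), a call lost without spleen WT replicate 2 (adjusted p = 0.0507), and none of the 7 genes passed in lung. Tkt and Taldo1, the most abundant of the branch, had lung differences of 0.25 ± 0.17, adjusted p = 0.33 and -0.19 ± 0.16, adjusted p = 0.422.

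Of 29 tested genes of a further hypoxia list, 9 rose and 3 fell in spleen and 6 rose and 2 fell in lung, against 26.6% and 20.2% of all tested genes called in either direction. Epas1, the second HIF alpha subunit, had the largest change of the list in spleen: it was at 3.56, 0 and 1.70 CPM in spleen WT, 153, 263 and 229 in spleen ∆Foxp3, 1.72, 7.26 and 19.5 in lung WT and 261, 209 and 310.3 in lung ∆Foxp3. The lowest ∆Foxp3 library was at 153 CPM and the highest WT library at 19.5 (6.77 ± 0.78, adjusted p = 9.96e-05 and 4.73 ± 0.68, adjusted p = 0.000777), while Hif1a did not pass. Epas1 is also an endothelial gene. Of 6 endothelial markers, Cdh5, Kdr and Tek were at 1.58 CPM or less in every library and were not tested, Cldn5 was at 0 in all spleen libraries and at 6.50 CPM or less in lung, and Egfl7 was at 7.38 CPM or less. Neither Cldn5 nor Egfl7 passed between genotypes, though Egfl7 was higher in all spleen ∆Foxp3 libraries (1.58 to 3.12 CPM) than in spleen WT (0 to 1.25). Pecam1, which T cells also express and which made up most of the markers' sum, was lower in ∆Foxp3 of both tissues. Bhlhe40, a transcription factor induced by hypoxia and by T cell activation, was at 64.2, 14.5 and 17.9 in spleen WT and 289, 376 and 322 in spleen ∆Foxp3, and at 48.9, 40.9 and 8.09 in lung WT and 568, 862 and 939.7 in lung ∆Foxp3. The groups were far apart in both tissues (3.33 ± 0.66, adjusted p = 0.00404 and 4.61 ± 0.70, adjusted p = 0.0014). P4hb, the partner of P4ha1 in collagen hydroxylation and an abundant disulfide isomerase, rose where P4ha1 fell (0.90 ± 0.17, adjusted p = 0.00149 and 0.74 ± 0.17, adjusted p = 0.00776). Pnrc1, a nuclear receptor coactivator, fell by 1.71 ± 0.34 in spleen and 1.03 ± 0.34 in lung, the lung call being lost without any lung WT library, lung ∆Foxp3 replicate 2 or 3, or spleen WT replicate 2 or 3 (adjusted p = 0.0528 to 0.196). Plod2, a collagen lysyl hydroxylase, had 1 count in lung WT and 50 in lung ∆Foxp3, a ratio of 51.2 with a 95% counting interval of 8.78 to 2063, and that call was lost without lung ∆Foxp3 replicate 3 or lung WT replicate 1 or 3 (adjusted p = 0.0557 to 0.0706).

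Of 28 tested regulators of growth and nutrient use, 2 rose and 5 fell in spleen and 1 rose and 6 fell in lung, shares near those of all tested genes (26.6% and 20.2% called in either direction). Sesn1, a stress protein that restrains mTOR signalling, fell from 474, 438 and 435 to 54.0, 24.5 and 33.0 CPM in spleen and from 412, 405 and 355 to 26.3, 23.8 and 17.2 in lung (-3.59 ± 0.24, adjusted p = 6.24e-07 and -4.12 ± 0.25, adjusted p = 6.56e-07). Foxo1 and Foxo3, transcription factors of quiescent T cells, fell by 2.14 ± 0.19 and 1.73 ± 0.30 in spleen and by 2.36 ± 0.19 and 1.40 ± 0.29 in lung (log2). Sesn2 fell in lung (-1.42 ± 0.32, adjusted p = 0.00683) and did not pass in spleen. Batf, an activation factor of effector Treg, rose by 1.02 ± 0.22, adjusted p = 0.0032 in spleen and, in lung, 0.91 ± 0.22, adjusted p = 0.00951. Cell cycle genes named by the same rule passed as higher in both tissues, except Mki67 in lung. Kif11 rose by 4.51 ± 0.32, adjusted p = 1.15e-06 in spleen and, in lung, 1.44 ± 0.27, adjusted p = 0.00222. Tyms rose by 3.01 ± 0.29, adjusted p = 1.02e-05 and 1.62 ± 0.28, adjusted p = 0.00123. Lung Mki67 differed by a log2 of 0.80, adjusted p = 0.0941. It passed under 6 of the 22 alternatives, among them DESeq2 and limma (adjusted p = 0.0473 and 0.00283). The lung call of Ccna2 was lost without lung ∆Foxp3 replicate 2 or lung WT replicate 1 or 2 (adjusted p = 0.0598 to 0.0737).

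Between tissues within a genotype, few of all tested genes were called, and few members. In WT cells Egln3 was the single member called of 34 tested, against 4.13% of all tested genes. There 10 members had all lung libraries above all spleen libraries while 2 lay the other way. Over all tested genes 25.6% were apart in either direction (13.2% higher and 12.4% lower). Tpi1, Gapdh and Pgk1 were among the former, with log2 differences of 0.92 ± 0.25, 0.56 ± 0.16 and 0.60 ± 0.20. Gapdh passed under 7 of the alternatives, among them leaving out spleen ∆Foxp3 replicate 2 or 3 (adjusted p = 0.0475 and 0.0376). In ∆Foxp3 cells Hilpda was the single member called, against 0.722% of all tested genes. Hif1a was the only other member with all lung libraries above spleen, against 15.5% of tested genes apart (8.07% higher and 7.41% lower in lung). Slc2a3 was called there without lung ∆Foxp3 replicate 1 (log2 1.27, adjusted p = 0.00569). Levels per kilobase of exon ordered the members in spleen WT as Ldha, Mif at 201 ± 42.5, Pkm at 147 ± 18.5 and Aldoa at 123 ± 10.2 CPM per kilobase (SD, n = 3). Gpi1, Eno1 and Gapdh, whose ranges overlap, followed at 62.2 to 73.4, and Hk2 and Vegfa closed the order at 0.666 and 0.0706. The length joins all annotated exons of a gene, 3.71 kilobases for Aldoa against 1549 bases for its longest coding transcript. The order depends on that choice and was not checked with another length.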

How the data were processed

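Per the labels' protocols, cDNA was made from 1000 sorted cells per library by a Smart-seq2-type method without molecular identifiers and sequenced as paired 38-base reads. The submitters' processing notes list mm10 as the build and, among tools, featureCounts, Subread 2.0.0 and STAR 2.7.3a; settings, annotation and strand were not given in the sources used here. What the authors deposited is a table of whole-number counts for each symbol, taken here without change. Without molecular identifiers, counting intervals cover counting error only.

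All 12 libraries entered 1 edgeR 4.0.16 fit (R 4.3.3) with group as the only term, TMM factors, filterByExpr and the robust quasi-likelihood F test, with Benjamini-Hochberg adjustment over 13295 genes and a threshold of 0.05. The SE is the one implied by the F statistic. On simulated counts for the spleen comparison (12839 genes, 200 changed), 75.5% of genes changed by a log2 of 2 and 36.5% of those changed by 1 were recovered, with 3 false calls. In the data 26.6% of tested genes were called, a far larger part, so these shares do not give the recovery in the real comparison. Members, lists and tests were chosen with earlier results of these data known. Members called in a genotype comparison are given by library and others by range; from each further list, up to 4 called genes per genotype comparison were taken by adjusted p, or the 2 most abundant. Gene models are GENCODE vM21 on the same build. Alternatives used DESeq2 1.42.0 and limma 3.58.1.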

Additional observations from a re-analysis of the deposited data

Results flagged for a closer look

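The genotype difference in lung minus that in spleen passed the interaction test of edgeR for 5 of the genes described. On the log2 scale it was 1.95 for Hilpda, the single member among them, whose rise was larger in lung. It was -1.43 for Gpd1l, which fell in lung and did not pass in spleen. Among cell cycle genes it was -2.58 for Ccna2, -3.08 for Kif11 and -2.50 for Mki67, whose levels in lung WT were above those in spleen WT; the Mki67 difference no longer passed when lung ∆Foxp3 replicate 1 or 3, lung WT replicate 3, spleen ∆Foxp3 replicate 1 or 2 or spleen WT replicate 3 was left out (adjusted p = 0.0513 to 0.091), nor the Ccna2 difference without the 3 libraries that stood apart together (adjusted p = 0.0615). Tissue, preparation and the labelled allele cannot be told apart in these differences.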

How the results depend on the processing

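Of 86 gene results that passed, 60 passed under every alternative tried, and of 245 gene results in all, 190 kept their side of the threshold throughout. No result that passed in either fit changed direction; of the 3347 values that passed in neither, 158 changed sign, so no direction is read from them. Counts of all called genes moved by more than 1.5 times in these cases. In spleen the count was 2287 with only the groups compared, against 3540, and 2710 to 3575 with 1 library left out. In lung it was 4598 with limma and 1321 without the 3 libraries that stood apart, which were chosen after seeing the data, against 2686, and 1457 to 3364 with 1 library left out, lowest without lung ∆Foxp3 replicate 3. Between WT tissues it was 957 without the low-count filter and 1046 with DESeq2 and with limma, against 549, and 281 to 693 with 1 left out. Between ∆Foxp3 tissues it was 292 without the filter, 235 with DESeq2 and 228 with limma, against 96, and 42 to 152 with 1 left out. For the interaction it was 363, 301 and 190 in the same order and 74 with replicate number as a block, against 123, and 36 to 178 with 1 left out. Called members were 18 to 22 in spleen and 12 to 20 in lung with 1 library left out, against 22 and 15. Between WT tissues the single called member became 2 with RLE or upper-quartile factors or only the groups compared, 4 without the filter, 3 with a minimum of 10 CPM, 5 with DESeq2 or limma, and 0 to 3 with 1 left out. Between ∆Foxp3 tissues it became 3 without the filter, 2 with DESeq2, only the groups compared or without the 3 libraries, and 1 to 3 with 1 left out. For the interaction it became 3 without the filter, with DESeq2 or with limma, and 1 to 2 with 1 left out. The Slc2a1 share difference was 6.52 to 12.5 points with 1 left out. No pairing of libraries by replicate number was seen (18 same-number pairs, correlations of deviations from -0.0766 to 0.0871). Pairs of different number were not compared, so shared mice or batches are not excluded. With replicate number as a block, 22 spleen and 14 lung members passed. Depth and 3 libraries a group limit the detection of smaller changes. In simulated spleen counts 36.5% of genes changed by a log2 of 1 were recovered. Far fewer genes were changed there (200 of 12839) than were called in the data (26.6%), which makes the adjusted threshold stricter. That share therefore does not give the recovery in the real comparison.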
